A study of Homo sapiens with 6 samples.

Results

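Genes of the mitochondrial respiratory chain, of protein import into mitochondria and of the mitochondrial carrier family were followed in SH-SY5Y cells treated with inhibitors of protein disulfide isomerase (PDI). The members were protein-coding genes whose symbol starts with NDUF, UQCR, COX followed by a digit, ATP5, TIMM, TOMM or SLC25A. Of 14884 genes named on the array, 59 met this rule. RefSeq lists 178 protein-coding genes with such symbols, and coverage was uneven. All 17 COX4 to COX8 genes, 10 of 10 TOMM genes and 13 of 15 TIMM genes were measured. Of 38 complex I subunit genes 0 had a named probe set, and 3 of 20 ATP synthase genes and 2 of 48 SLC25A carriers did. Of the array's 53617 probe sets 37519 had no gene name here, so genes missing from the count may still lie among them. The label of the group therefore holds for complex IV and for import, and only in part for the rest of the chain and for the carriers.

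SH-SY5Y is a human neuroblastoma line with features of sympathetic neurons. Mock cells received the solvent methanol, another group received securinine at 30 µM and the last received 16F16 at 4 µM, each for 24 h. The labels describe both compounds as PDI inhibitors, and their doses differed. Each group had 2 arrays of total RNA, which the labels call biological replicates without saying how cultures were separated. The p-values therefore weigh each difference only against the spread between these samples. That spread was pooled over the 3 groups and moderated by that of all genes fitted. A single cell line at a single time was sampled, and no genetic change was added in any group.

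The respiratory chain passes electrons from complex I or II through complex III to complex IV, cytochrome c oxidase, and the proton gradient it builds drives the ATP synthase. Nearly all proteins of these complexes are made in the cytosol and enter through the TOM complex of the outer membrane. From there the TIM23 complex takes up proteins with a cleavable presequence, and small TIM chaperones of the intermembrane space carry hydrophobic proteins to the TIM22 complex. Small TIM proteins are themselves folded by a disulfide relay in that space, run by the oxidoreductase CHCHD4, also called MIA40. SLC25A carriers move metabolites across the inner membrane.

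Values are log2 expression as the authors deposited them, relative within the set of arrays. Array medians over all 53617 probe sets lay between 4.16 and 4.23, and arrays correlated at 0.986 to 0.990 within a group and at 0.979 to 0.986 between groups. All 9 measured markers of neuroblastoma and sympathetic neurons lay above the array median on all 6 arrays, among them HAND2 at 11.17 to 11.30, and 3 of them fell with securinine (CHGA, DBH and STMN2). CHGA, a protein of secretory granules, stood out at -2.22 ± 0.092 with securinine and also fell with 16F16 (-1.24 ± 0.092, adjusted p = 0.024). The markers' mean level per array was 9.91 to 9.93 with mock, 9.41 to 9.50 with securinine and 9.66 to 9.68 with 16F16, and its part in the results was not tested. Of 4 listed blood markers the 1 measured, CD14, rose with securinine by 0.57 ± 0.14 from 4.05 and 4.19, values near the array median. Whether this moved with other cells was not tested. The 2 endothelial markers PECAM1 and VWF were no brighter than the median on 4 or more arrays, and of 4 epithelial and 2 fibroblast markers 0 were called. All 4 epithelial markers and the fibroblast marker LUM also lay above the array median on all 6 arrays, and DCN lay at or below it on all 6. A level above the median thus does not by itself tell cell types apart. Most members were bright: 4 of the 59 were no brighter than the array's median on 4 or more arrays (COX6B2, COX7B2, COX8C and TOMM20L), and COX7B2 was also no brighter than the lower quartile.

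The first comparison asked what securinine changed against mock. With securinine 9 members fell and 1 rose, where a call is an adjusted p under 0.05 in limma over all 14884 genes. The falls were in import genes and in the complex IV genes COX8A and COX18. From the largest down they were TIMM10, TIMM8A, COX8A, COX18, TIMM50 with TOMM6 (both -0.38), TIMM9, TOMM22 and TIMM13, and the rise was COX20. They were modest, from 1.24-fold to 1.55-fold. The 10 calls are 16.9% of the members, and 19.0% of all genes were called, so the members were not called more often than genes in general. Falls made up 15.3% of members against 10.6% of all genes and 12.2% of protein-coding genes, and rises made up 1.69% against 8.40% and 9.13%. The median difference of the members was -0.097, beside -0.035 for all genes and -0.043 for protein-coding genes. In bulk RNA, fewer cells of a type and less RNA per cell cannot be told apart.

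**Figure D1:**
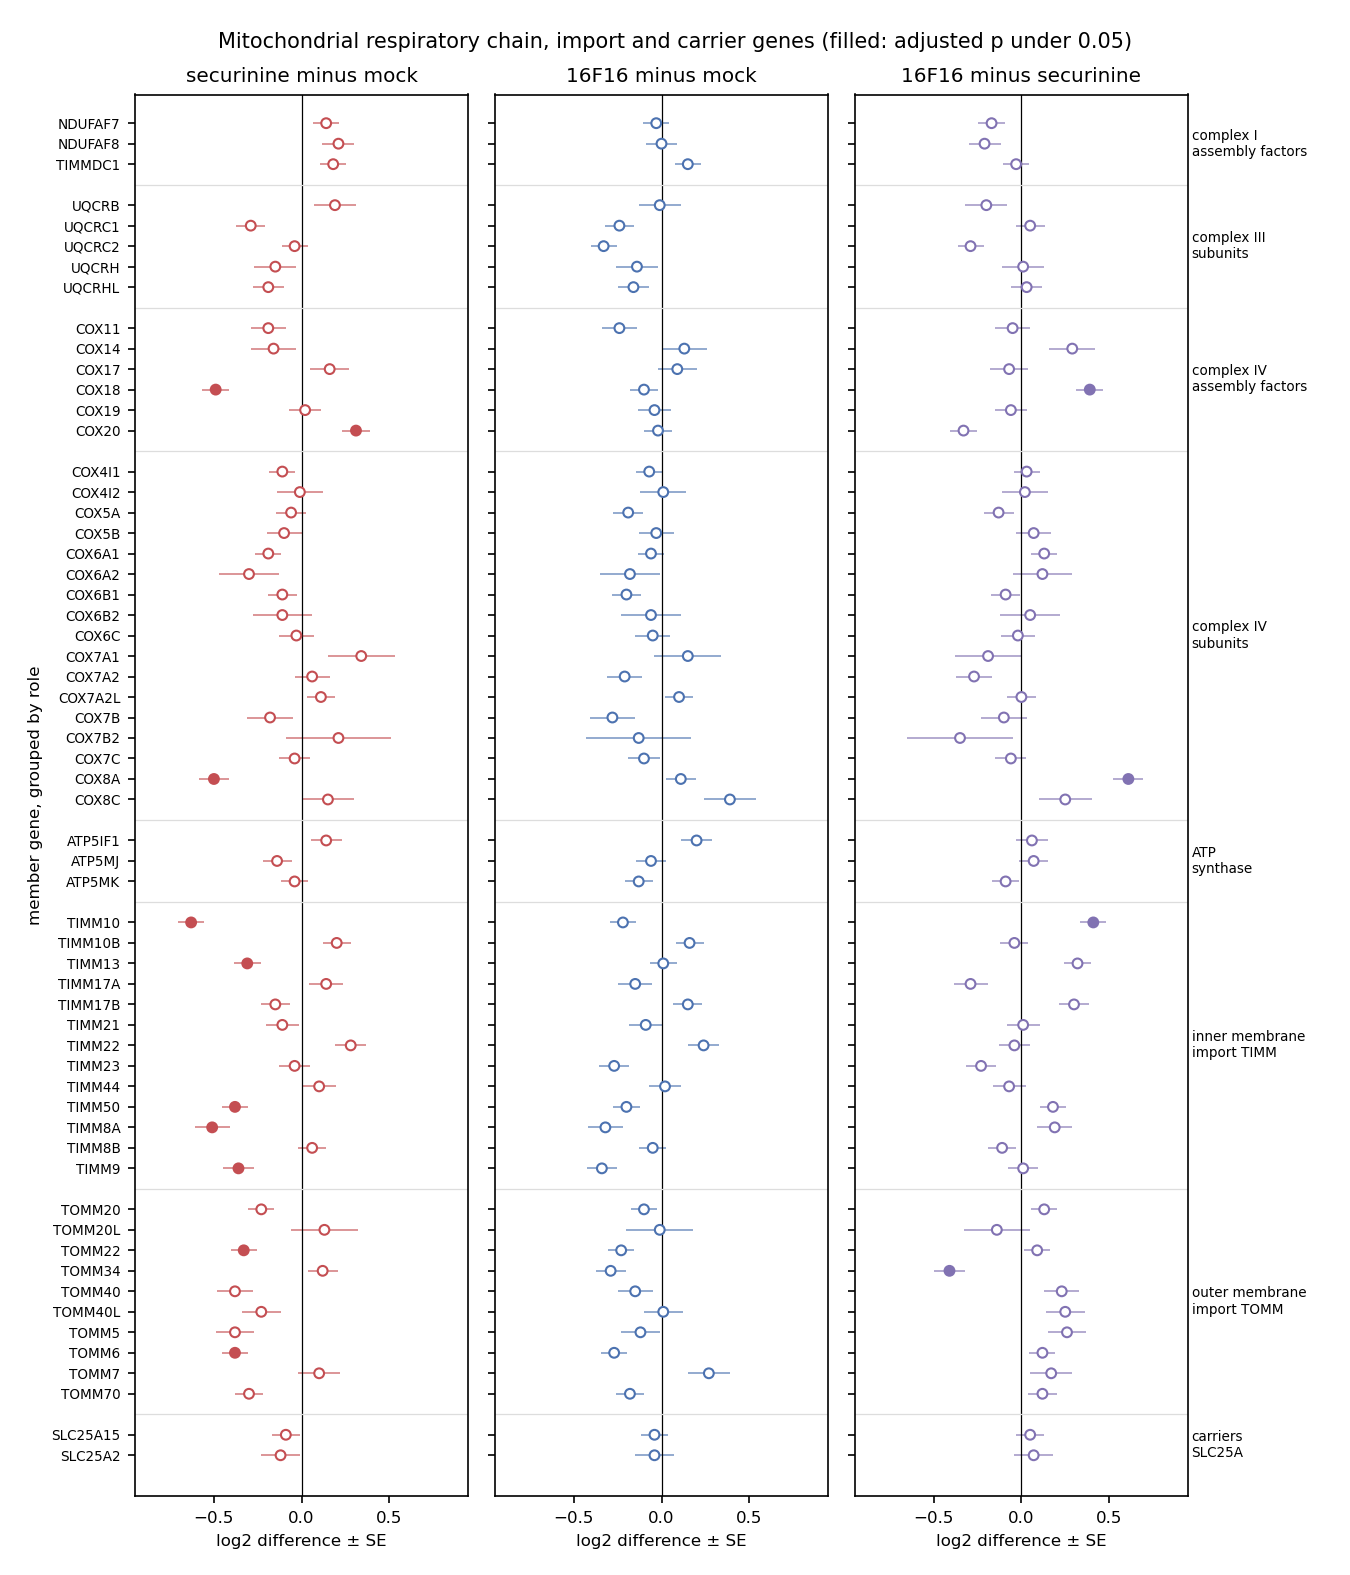
Log2 difference (x axis) of each of the 59 member genes (y axis, grouped by role) for securinine minus mock, 16F16 minus mock and 16F16 minus securinine. Points are differences of means of 2 arrays, bars are the standard error of the fit, and filled points have an adjusted p under 0.05. There are 10 filled points for securinine, 0 for 16F16 and 4 between the compounds.

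The calls did not rest evenly on the arrays. Without mock replicate 1, 0 members were called with securinine. Without mock replicate 2, securinine replicate 1 or securinine replicate 2, 1 member was called each time, TIMM10, and without either 16F16 array 6 were. With the intensity trend in the variance prior 21 members were called, and 1 was called when all probe sets were fitted and adjusted over together. In the fit of the 4 arrays compared, 4 calls were lost, those of TOMM22 (adjusted p = 0.055), COX20 (0.062), TIMM13 (0.063) and TIMM9 (0.066).

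Among import genes, the small TIM chaperone genes TIMM10 and TIMM8A had the largest differences with securinine. TIMM10, which pairs with TIMM9 to escort carrier precursors, was at 8.17 and 8.13 with mock, 7.53 and 7.51 with securinine and 7.90 and 7.95 with 16F16. The 3 groups did not overlap, with securinine lowest and 16F16 between it and mock. TIMM10 fell by 0.63 ± 0.075 with securinine (SE, n = 2 arrays per group, adjusted p = 0.0065 in limma), a 1.55-fold fall. Without mock replicate 1 the difference was -0.61 with an adjusted p of 0.052. TIMM9, its partner, was at 7.14 and 7.30 with mock, 6.87 and 6.86 with securinine and 6.88 and 6.87 with 16F16. Both treated groups lay below both mock arrays, and the fall of 0.36 ± 0.087 was called for securinine (adjusted p = 0.042), while 16F16 stood at -0.34 ± 0.087 (adjusted p = 0.11).

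TIMM8A and TIMM13 form the other chaperone complex of this space, and TIMM8A is the gene of deafness-dystonia syndrome. TIMM8A was at 7.67 and 7.54 with mock, 7.14 and 7.05 with securinine and 7.38 and 7.20 with 16F16. Both securinine arrays lay below both mock arrays, and the fall was 0.51 ± 0.10 (adjusted p = 0.023). TIMM13 was at 9.67 and 9.68 with mock, 9.35 and 9.39 with securinine and 9.72 and 9.64 with 16F16. Here the 16F16 arrays spanned the mock arrays, and the fall with securinine was 0.31 ± 0.078 (adjusted p = 0.047). This call was also lost with arrays centred on their medians (-0.34, adjusted p = 0.051). The 2 remaining small TIM genes went the other way without a call, TIMM10B at 0.20 ± 0.080 and TIMM8B at 0.06 ± 0.078. Of the 6 small TIM genes 4 thus fell and 0 rose, where 10.6% of all genes fell and 8.40% rose, and this grouping was made after the values were seen.

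The presequence translocase and its receptors moved less evenly. TIMM50, the receptor that hands presequences to the TIM23 channel, was at 9.20 and 9.22 with mock, 8.80 and 8.86 with securinine and 9.0 and 9.02 with 16F16. The groups did not overlap, and the fall with securinine was 0.38 ± 0.076 (adjusted p = 0.024). The channel gene TIMM23 was at -0.04 ± 0.087 and its value is uncertain, since TIMM23B is a near-identical copy. The paired channel subunits TIMM17A and TIMM17B stood at 0.14 ± 0.097 and -0.15 ± 0.083, the motor anchor TIMM44 at 0.10 ± 0.094 and TIMM21 at -0.11 ± 0.094, none of them called. TIMM22, the channel of the carrier translocase, stood at 0.28 ± 0.088 (adjusted p = 0.079) with both securinine arrays (10.12 and 10.18) above both mock arrays (9.88 and 9.85).

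Among TOM complex genes the differences with securinine were mostly below 0. TOMM22, the central receptor, was at 8.29 and 8.28 with mock, 7.93 and 7.98 with securinine and 8.05 and 8.04 with 16F16, and fell by 0.33 ± 0.074 with securinine (adjusted p = 0.034). TOMM6, a small subunit that stabilises the complex, was at 11.42 and 11.39 with mock, 11.02 and 11.02 with securinine and 11.15 and 11.13 with 16F16, and fell by 0.38 ± 0.074 (adjusted p = 0.021). In both genes the 3 groups did not overlap. The receptors TOMM70 (-0.30 ± 0.081, adjusted p = 0.055) and TOMM20 (-0.23 ± 0.074, adjusted p = 0.090), and the small subunit TOMM5 (-0.38 ± 0.11, adjusted p = 0.071), were not called. TOMM7, another small subunit, stood at 0.10 ± 0.12.

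The channel gene TOMM40 was represented by a pair of probe sets that disagreed. The brighter one stood at -0.38 ± 0.10 with securinine (adjusted p = 0.057) and the other one at 0.08, and with 16F16 they stood at -0.15 and -0.25. For the brighter one, all 10 named probe sets with the nearest identifiers belong to genes of chromosome 19, where TOMM40 lies. For the other one no chromosome held more than 2 of the 10, so its identifier does not place it at the gene. In the 7 genes of the TOM complex, taking the brighter TOMM40 probe set, both securinine arrays lay below both mock arrays in 6 and 2 were called. This grouping, too, was made after the values were seen. Over all members such a separation downward was seen in 27 of 59 (45.8%), against 33.9% of all genes, and upward in 13 of 59, against 27.0%. At an unadjusted p under 0.05, 15 members (25.4%) were lower, against 18.7% of all genes, and 3 (5.08%) were higher, against 14.9%. TOMM34, a cytosolic cochaperone that is not part of the complex, was at 0.12 ± 0.086.

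Complex IV held both directions. COX8A, a small structural subunit, was at 11.37 and 11.44 with mock, 10.97 and 10.84 with securinine and 11.52 and 11.50 with 16F16. The securinine arrays stood apart from the other 4, and the fall was 0.50 ± 0.086 (adjusted p = 0.015), 1.42-fold. COX18, the insertase that places part of the core subunit COX2 in the membrane, was at 7.17 and 7.20 with mock, 6.67 and 6.72 with securinine and 7.12 and 7.05 with 16F16, and fell by 0.49 ± 0.078 (adjusted p = 0.013). COX20, a chaperone of the same core subunit, was at 8.21 and 8.23 with mock, 8.55 and 8.51 with securinine and 8.16 and 8.24 with 16F16. It rose by 0.31 ± 0.078 with securinine (adjusted p = 0.045), and the call was lost with quantile normalization (0.26, adjusted p = 0.074) and with arrays centred on their medians (0.28, adjusted p = 0.062). Under those scalings the members called were 0 higher with 12 lower, and 0 higher with 8 lower.

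**Figure D2:**
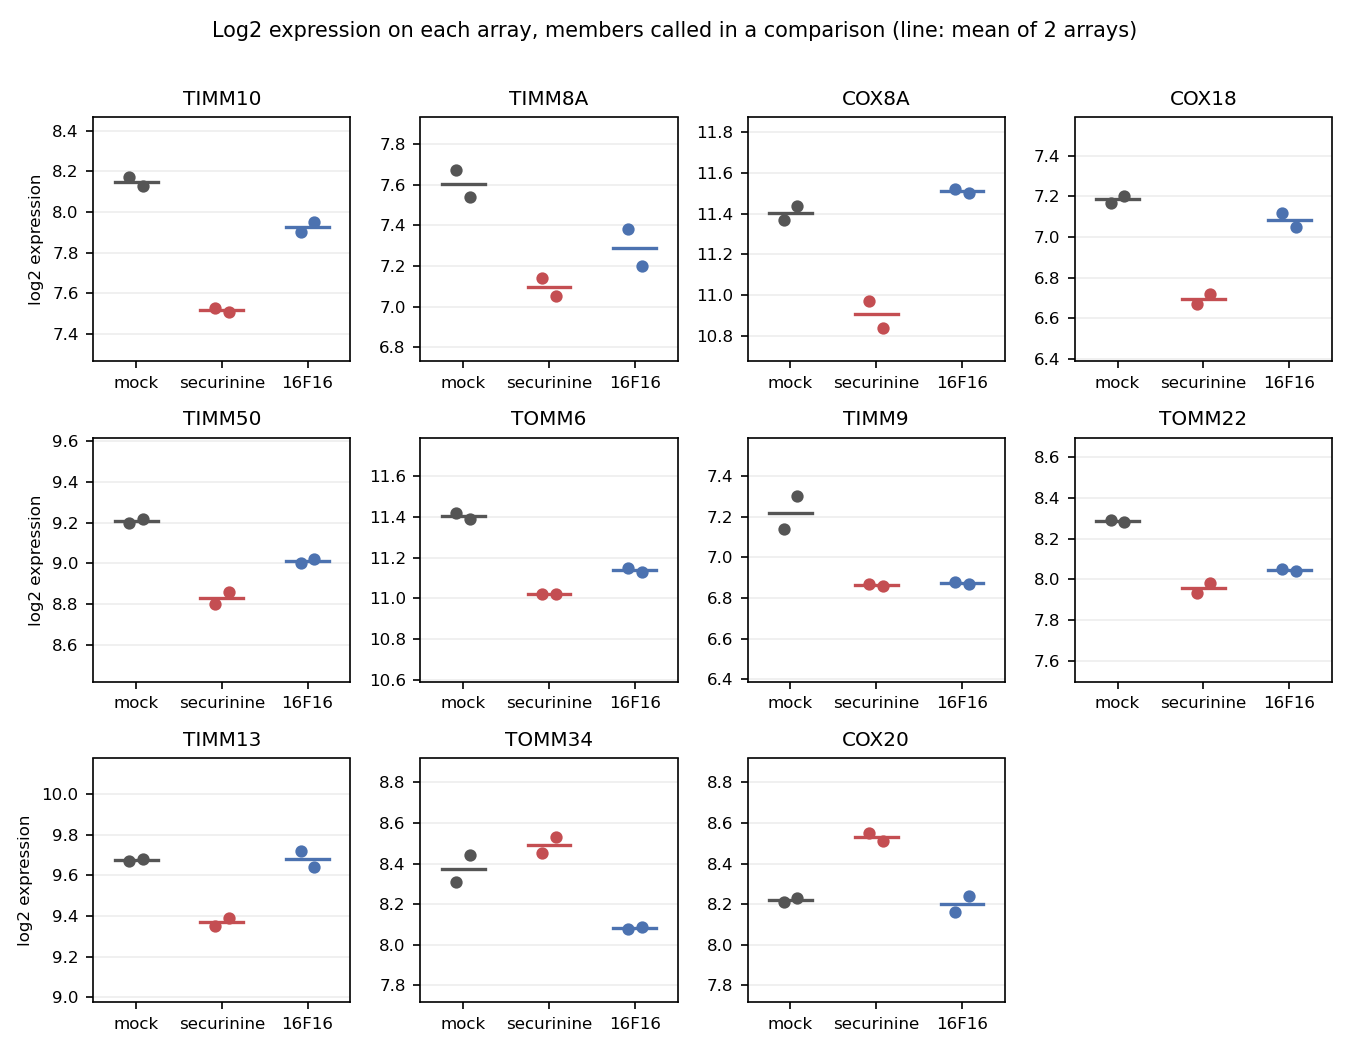
Log2 expression (y axis, each panel spanning the same range) on each of the 6 arrays for the 11 members called in any comparison, by group (x axis: mock, securinine, 16F16). Points are arrays and lines are means of 2 arrays. In TIMM10 the securinine arrays at 7.53 and 7.51 sit lowest, and in COX20 the securinine arrays at 8.55 and 8.51 sit highest.

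The other complex IV genes did not pass. The copper chaperones COX11 (-0.19 ± 0.10), COX17 (0.16 ± 0.11) and COX19 (0.02 ± 0.093) and the assembly factor COX14 (-0.16 ± 0.13) were not called with securinine. Of 10 subunit isoforms found in most tissues, 9 had a difference below 0, against 55.4% of all genes, and COX8A was the 1 called, with COX4I1, a regulatory subunit, at -0.11 ± 0.074, COX6B1 at -0.11 ± 0.083 and COX7B at -0.18 ± 0.13. COX6A1 stood at -0.19 ± 0.074 through a probe set at 12.14 to 12.33. All 10 named probe sets with the nearest identifiers belong to genes of chromosome 6, while COX6A1 lies on chromosome 12, so its value may hold signal of another locus. Its other probe set was at 3.09 to 4.04. The 6 isoforms known for restricted tissues were not called, and 3 had a difference below 0 and 3 above. COX7A1 was at 0.34 ± 0.19, COX8C at 0.15 ± 0.15 and the dim COX7B2 at 0.21 ± 0.30. COX6A2 was at -0.30 ± 0.17, COX6B2 at -0.11 ± 0.17 and COX4I2 at -0.01 ± 0.13.

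Complex III, the ATP synthase, the complex I assembly factors and the carriers had 0 calls with securinine in limma. UQCRC1, a core subunit of complex III, came nearest at -0.29 ± 0.082 (adjusted p = 0.060), from 8.73 and 8.62 with mock to 8.35 and 8.41. UQCRC2, the other core subunit, was at -0.04 ± 0.074, and UQCRB, which binds ubiquinone, at 0.19 ± 0.12. UQCRH (-0.15 ± 0.12) and UQCRHL (-0.19 ± 0.090) are near-identical and their separate values are uncertain. The 3 complex I assembly genes were all higher on both securinine arrays than on both mock arrays without a call, as were 27.0% of all genes, with NDUFAF7 at 0.14 ± 0.075, NDUFAF8 at 0.21 ± 0.091 and TIMMDC1 at 0.18 ± 0.075. ATP5IF1, the inhibitor of the ATP synthase, was at 0.14 ± 0.089, and the small subunits ATP5MJ and ATP5MK were at -0.14 ± 0.083 and -0.04 ± 0.079. The ornithine carriers SLC25A15 and SLC25A2 were at -0.09 ± 0.079 and -0.12 ± 0.11. At an unadjusted p under 0.05 limma gave 1 of these genes with securinine, UQCRC1.

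Promoters of 6 members that fell with securinine are shown because they hold a motif known from promoters of nuclear genes for mitochondria. Sequences are from RefSeq (GRCh38.p14) and cover the 250 bases before the start, 5′ to 3′ on the gene's strand. Capitals mark the ETS core CCGGAAG, bound by factors such as GABPA, or the NRF1 core GCATGCGC, read on either strand.
TIMM10, chr11:57530755-57531004, minus strand: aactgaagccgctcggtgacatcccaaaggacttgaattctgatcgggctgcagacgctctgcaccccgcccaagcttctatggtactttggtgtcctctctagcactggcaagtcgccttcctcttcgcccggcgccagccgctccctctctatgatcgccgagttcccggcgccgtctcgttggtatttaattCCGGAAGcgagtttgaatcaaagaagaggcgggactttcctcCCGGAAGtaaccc
TOMM6, chr6:41787444-41787693, plus strand: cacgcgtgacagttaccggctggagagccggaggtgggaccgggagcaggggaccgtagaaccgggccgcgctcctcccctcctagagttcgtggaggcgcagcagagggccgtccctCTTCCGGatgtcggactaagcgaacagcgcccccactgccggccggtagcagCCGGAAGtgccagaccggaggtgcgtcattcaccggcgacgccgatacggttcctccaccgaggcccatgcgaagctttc
TIMM13, chr19:2427587-2427836, minus strand: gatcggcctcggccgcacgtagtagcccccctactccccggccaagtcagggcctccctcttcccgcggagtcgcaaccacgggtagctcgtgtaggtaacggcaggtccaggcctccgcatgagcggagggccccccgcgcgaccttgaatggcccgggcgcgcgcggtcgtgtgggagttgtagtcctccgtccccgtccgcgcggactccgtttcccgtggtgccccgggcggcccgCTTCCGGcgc
COX8A, chr11:63974370-63974619, plus strand: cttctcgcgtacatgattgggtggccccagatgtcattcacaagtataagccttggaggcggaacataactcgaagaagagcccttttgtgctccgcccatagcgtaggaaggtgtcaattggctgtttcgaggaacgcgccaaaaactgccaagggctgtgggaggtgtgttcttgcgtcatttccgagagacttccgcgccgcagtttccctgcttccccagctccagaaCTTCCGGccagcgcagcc
COX18, chr4:73069717-73069966, minus strand: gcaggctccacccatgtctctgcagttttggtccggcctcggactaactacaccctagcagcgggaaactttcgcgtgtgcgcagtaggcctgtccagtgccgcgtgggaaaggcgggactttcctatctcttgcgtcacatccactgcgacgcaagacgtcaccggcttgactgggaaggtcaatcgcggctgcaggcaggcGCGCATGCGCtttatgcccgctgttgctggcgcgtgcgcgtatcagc
TIMM9, chr14:58427532-58427781, minus strand: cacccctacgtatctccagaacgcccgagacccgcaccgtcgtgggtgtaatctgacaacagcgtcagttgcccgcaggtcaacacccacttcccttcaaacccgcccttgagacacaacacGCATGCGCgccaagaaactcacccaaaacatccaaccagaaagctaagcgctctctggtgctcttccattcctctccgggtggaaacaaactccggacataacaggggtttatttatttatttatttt
TIMM10 held the ETS core at -55 to -49 and at -13 to -7 from the start, and TOMM6 held it at -132 to -126 and -80 to -74. In COX18 the NRF1 core was read on both strands in overlapping positions, from -47 to -38. TIMM9 held the NRF1 core at -128 to -121. TIMM13 held the ETS core at -10 to -4 and COX8A at -18 to -12, both on the opposite strand.

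The same motifs were counted over all members with a sequence, 50 of 59, in windows of the same length and on both strands. The ETS core was in 4 of the 9 promoters of members that fell, in 10 of the 40 of members not called and in 28.0% of the 50, against 8.82% of all 27305 promoters and 11.8% of the 15843 of protein-coding genes. The NRF1 core was in 2 of the 9, in 4 of the 40 and in 12.0% of the 50, against 2.81% and 3.70%. The E-box CACGTG, the letters bound by MYC, was in 0 of the 9 and in 4.00% of the 50, against 6.49% of all promoters. The YY1 core AAGATGGCG was in 0 of the 9 and in 2.00% of the 50, against 0.641%. Both ETS and NRF1 cores were thus found in members that fell and in members that were not called. A match says that the letters are present and not that a factor binds.

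The second comparison asked what 16F16 changed against mock. In limma 0 of the 59 members passed, against 1.50% of all genes (0.719% higher and 0.779% lower). At an unadjusted p under 0.05 there were 12, 10 lower and 2 higher, that is 16.9% and 3.39% of the members against 11.3% and 9.78% of all genes. With the intensity trend in the variance prior 12 members were called, 10 lower and 2 higher, and among genes above the median probe set 2 were, UQCRC2 and TIMM9. The median difference of the members was -0.062, beside -0.012 for all genes and -0.019 for protein-coding genes. Both 16F16 arrays lay below both mock arrays in 25 members (42.4%), against 27.7% of all genes, and above them in 10 (16.9%), against 24.1%.

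Of the 59 members, TIMM9 and UQCRC2 had the largest differences below 0 with 16F16. UQCRC2, a core subunit of complex III, was at 10.68 and 10.70 with mock, 10.66 and 10.63 with securinine and 10.37 and 10.35 with 16F16. The 16F16 arrays lay below the other 4, and the difference was -0.33 ± 0.074 (adjusted p = 0.089). The import genes TIMM8A (-0.32 ± 0.10), TIMM23 (-0.27 ± 0.087), TOMM6 (-0.27 ± 0.074), TOMM22 (-0.23 ± 0.074), TIMM10 (-0.22 ± 0.075) and TIMM50 (-0.20 ± 0.076) were also lower on both 16F16 arrays than on both mock arrays without a call. TOMM34 was at 8.31 and 8.44 with mock and 8.08 and 8.09 with 16F16, a difference of -0.29 ± 0.086 (adjusted p = 0.15).

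Above 0 with 16F16 stood COX8C (0.39 ± 0.15), an isoform no brighter than the median probe set on all 6 arrays, TOMM7 (0.27 ± 0.12), TIMM22 (0.24 ± 0.088) and ATP5IF1 (0.20 ± 0.089). COX8A stood at 0.11 ± 0.086, COX18 at -0.10 ± 0.078 and COX20 at -0.02 ± 0.078. Other complex IV subunits included COX7B at -0.28 ± 0.13, COX7A2 at -0.21 ± 0.10 and COX6B1 at -0.20 ± 0.083. Both treatments were compared with the same mock arrays, so values of a gene under the 2 compounds share those arrays.

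**Figure D3:**
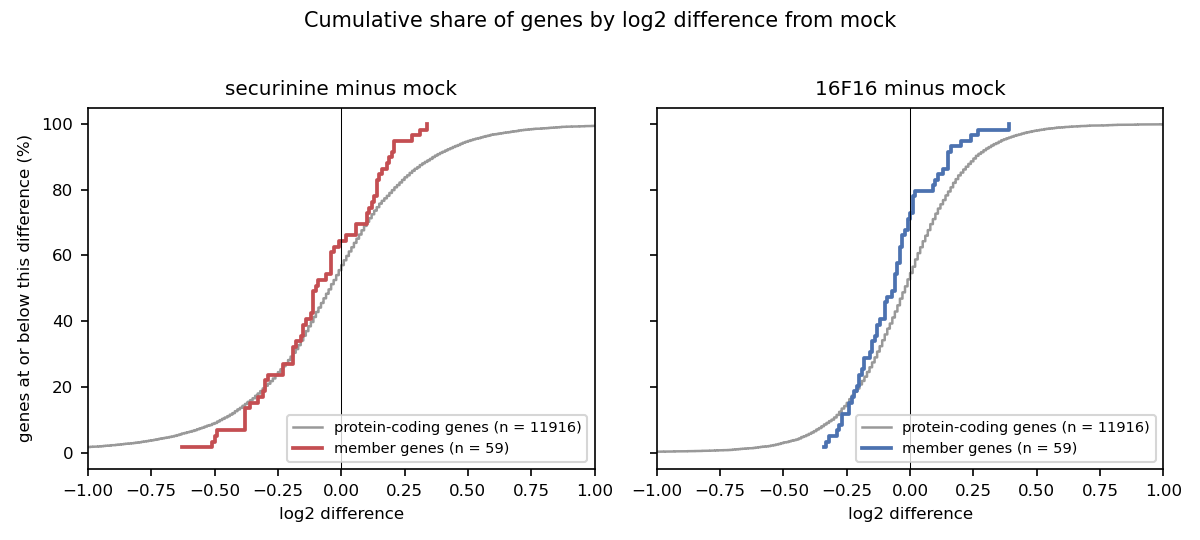
Cumulative share of genes (y axis, percent) at or below each log2 difference (x axis, cut at -1 and 1) for 59 member genes and 11916 protein-coding genes, with securinine and with 16F16 against mock. With 16F16, 71.2% of members and 53.7% of protein-coding genes lie below 0, and with securinine 64.4% and 56.4%.

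The third comparison set 16F16 directly against securinine, at doses of 4 and 30 µM. In limma 4 members were called, 6.78% against 9.51% of all genes, with 3 higher (5.08% against 5.55%) and 1 lower (1.69% against 3.96%). COX8A was higher with 16F16 by 0.61 ± 0.086 (adjusted p = 0.020), 1.53-fold, TIMM10 by 0.41 ± 0.075 (adjusted p = 0.033) and COX18 by 0.39 ± 0.078 (adjusted p = 0.039). TOMM34 was lower with 16F16 by a log2 difference of -0.41 ± 0.086 (adjusted p = 0.045). The arrays of the 2 compounds did not overlap in any of these 4 genes. Over all members they were apart with 16F16 higher in 21 (35.6%, against 29.3% of all genes) and lower in 15 (25.4%, against 26.4%). At an unadjusted p under 0.05 5 members (8.47%) were higher, against 14.8% of all genes, and 6 (10.2%) lower, against 12.9%. With each array centred on its median the count was 3 higher and 0 lower, and with quantile normalization 4 higher and 0 lower, so the call of TOMM34 was lost in both (-0.37, adjusted p = 0.060, and -0.36, adjusted p = 0.054). With any 1 of the 6 arrays left out, 0 members were called.

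The other 7 members called with securinine, 6 that fell and COX20, which rose, were not called between the compounds. TIMM13 stood at 0.32 ± 0.078 (adjusted p = 0.063), COX20 at -0.33 ± 0.078 (0.058), TIMM50 at 0.18 ± 0.076 (0.20), TIMM8A at 0.19 ± 0.10 (0.28), TOMM6 at 0.12 ± 0.074 (0.36), TOMM22 at 0.09 ± 0.074 (0.47) and TIMM9 at 0.01 ± 0.087 (0.95). A p above the threshold does not show that the compounds acted alike on them. UQCRC2, at -0.29 ± 0.074 (adjusted p = 0.069), was lower with 16F16 on both arrays.

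Other genes of the same pathways, listed by function and not by symbol, were read from the same fit, 80 of 121 being measured. Of 22 genes of import, sorting and folding, 6 fell and 1 rose with securinine, where 10.6% of all genes fell and 8.40% rose. OXA1L, an inner membrane insertase related to COX18, fell by 0.65 ± 0.082 (adjusted p = 0.0072), the presequence protease subunit PMPCB by 0.54 ± 0.078, the intermediate peptidase MIPEP by 0.62 ± 0.11 and SAMM50, which builds barrel proteins into the outer membrane, by 0.35 ± 0.076. CHCHD4, the oxidoreductase that folds small TIM proteins, was at 6.45 and 6.47 with mock, 6.13 and 5.90 with securinine and 6.24 and 6.34 with 16F16. It fell by 0.45 ± 0.11 with securinine (adjusted p = 0.037), and 16F16 stood at -0.17 ± 0.11. CHCHD10 fell by 0.42 ± 0.11 and the protease subunit SPG7 rose by 0.60 ± 0.10. With 16F16 0 of these 22 were called in limma. An unadjusted p under 0.05 was found in 8, all of them lower, a level passed by 11.3% of all genes lower and 9.78% higher.

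Of 30 assembly genes outside the symbol rule, 5 fell and 2 rose with securinine, beside the same 10.6% and 8.40% of all genes. UQCC2, needed for complex III, fell by 0.63 ± 0.091, and LYRM7, which matures its iron-sulfur subunit, by 0.56 ± 0.095. SDHAF3, a complex II factor, fell by 0.55 ± 0.11, PET117 by 0.47 ± 0.11 and the complex I factor ECSIT by 0.42 ± 0.094. COA6, a copper protein of complex IV assembly, rose by 0.64 ± 0.095 and PET100 by 0.42 ± 0.087. With 16F16 0 of the 30 were called in limma, and 6 had an unadjusted p under 0.05. Of these, SCO1, SDHAF3, LRPPRC and LYRM7 were lower and COA6 and PET100 higher. Over all genes 11.3% passed that level lower and 9.78% higher.

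Of 17 genes of channels, carriers and calcium uptake, 4 fell and 2 rose with securinine, again beside 10.6% and 8.40% of all genes. MCUB, the inhibitory subunit of the calcium uniporter, was at 7.99 and 7.93 with mock, 7.07 and 6.95 with securinine and 8.0 and 7.91 with 16F16. It fell by 0.95 ± 0.088 with securinine (adjusted p = 0.0041) and was higher by the same amount with 16F16 than with securinine (0.95 ± 0.088, adjusted p = 0.0098). MPC1, a subunit of the pyruvate carrier, fell by 0.69 ± 0.093, SFXN2 by 0.80 ± 0.14 and SFXN3, a serine carrier, by 0.55 ± 0.094, while SFXN5 rose by 0.64 ± 0.10 and MTCH1 by 0.42 ± 0.074. SFXN3 was the 1 gene of the 5 lists called with 16F16, where it fell by 0.88 ± 0.094 (adjusted p = 0.029). In limma 7 of the 17 had an unadjusted p under 0.05 with 16F16. Of these, SFXN3, MCU, SMDT1, VDAC1 and VDAC3 were lower and SFXN5 and MTCH1 higher. Over all genes 11.3% passed that level lower and 9.78% higher. Between the compounds 2 of the 17 were called higher with 16F16 and 1, VDAC1, lower (-0.46 ± 0.079, adjusted p = 0.029), against 5.55% and 3.96% of all genes.

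**Figure D4:**
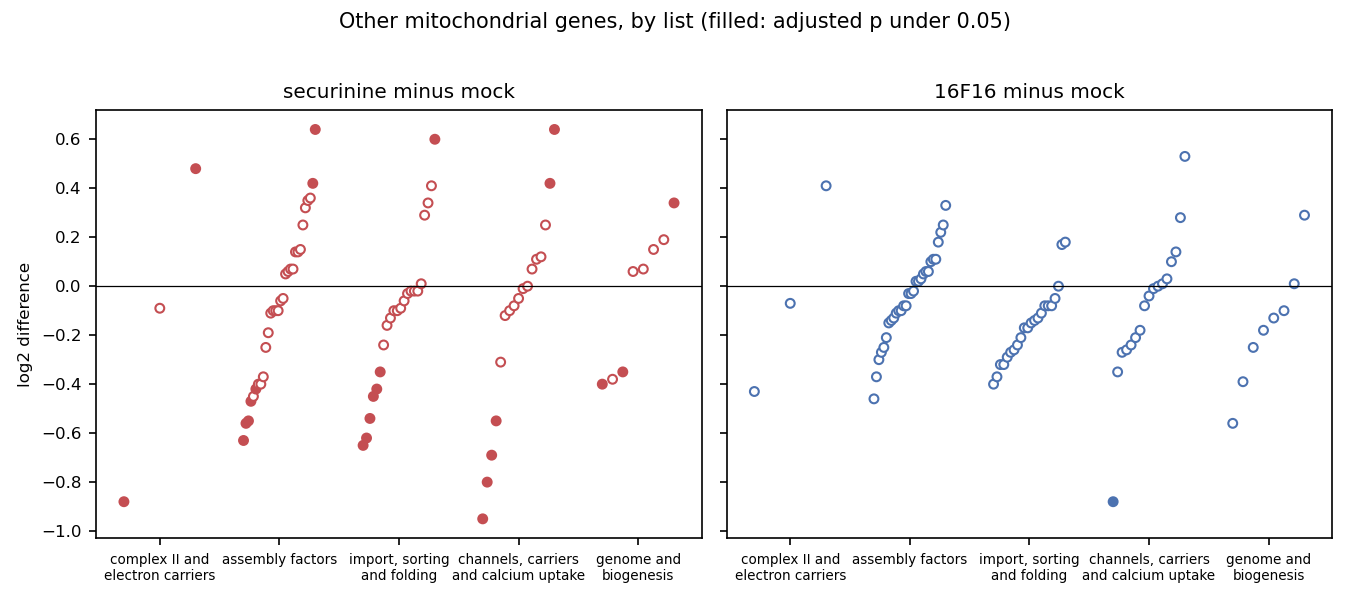
Log2 difference from mock (y axis) of 80 mitochondrial genes outside the symbol rule, in 5 lists by function (x axis), with securinine and with 16F16. Each point is a gene and filled points have an adjusted p under 0.05. The lowest securinine point is MCUB at -0.95, and the filled 16F16 point is SFXN3 at -0.88.

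Among 3 measured genes of complex II and electron carriers, DHODH, the pyrimidine synthesis enzyme that feeds electrons to ubiquinone, fell by 0.88 ± 0.15 with securinine, and ETFDH, which passes electrons from fatty acid oxidation, rose by 0.48 ± 0.075. The cytochrome c1 gene CYC1 was at -0.09 ± 0.077, not called. Of 8 genes of mitochondrial genome maintenance and biogenesis, the helicase TWNK fell by 0.40 ± 0.088 and the receptor ESRRA by 0.35 ± 0.088, and the transcription factor YY1 rose by 0.34 ± 0.087. ESRRG, a related receptor, was lower with 16F16 than with securinine by a log2 difference of -0.76 ± 0.11 (adjusted p = 0.021). With securinine 10.6% of all genes fell and 8.40% rose. In neither of these 2 lists was a gene called with 16F16 against mock. There limma gave 2 and 3 genes an unadjusted p under 0.05, DHODH, ESRRG and TWNK lower and ETFDH and YY1 higher. Over all genes 11.3% passed that level lower and 9.78% higher.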

How the data were processed

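Total RNA was hybridised to 6 arrays of the Affymetrix Human Gene 2.0 ST type. The authors deposited log2 values for 53617 probe sets. The submitters' processing notes name RMA and limma, with no version. RMA puts arrays on a common scale, which hides shifts of most genes together. No genome build or annotation release was given in the sources used here. A platform table named 16098 probe sets (30.0%), each with 1 symbol and all matched by Entrez identifier to RefSeq (GRCh38.p14), and the brightest over the 6 arrays was kept for each of 14884 genes.

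Genes were fitted with limma 3.58.1 in R 4.3.3 (lmFit and eBayes, group as the only term, 3 residual and 2.68 prior degrees of freedom), with two-sided p-values adjusted by Benjamini-Hochberg. The median SE of a member was 0.089, and the number of arrays limits the precision. Named were called members, the 3 lowest p per role and treatment, and the brightest and dimmest of each role; members named beyond these were chosen after their values were seen. Of each other list, up to 4 called genes of lowest p per comparison were named, and further ones after their values were seen. Members and lists were chosen with earlier results of these data known. Alternatives covered scaling, filters, the variance prior, arrays and features fitted, the replicate block and each array left out.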

Additional observations from a re-analysis of the deposited data

Results flagged for a closer look

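In 4 members the 2 compounds, at their different doses, differed by the direct test of 16F16 against securinine, 6.78% of members against 9.51% of all genes. With any 1 of the 6 arrays left out, none of the 4 calls was kept in limma, where 7 to 10 members had an unadjusted p under 0.05. COX8A had a log2 difference of 0.61, TIMM10 of 0.41 and COX18 of 0.39, each higher with 16F16, and TOMM34 had -0.41. In COX8A both 16F16 arrays (11.52 and 11.50) lay above both mock arrays (11.37 and 11.44), while both securinine arrays (10.97 and 10.84) lay below them. In TOMM34 the securinine arrays (8.45 and 8.53) lay above the mock arrays and the 16F16 arrays (8.08 and 8.09) below.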

How the results depend on the processing

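Counts of called members moved with the variance prior, the features fitted and the arrays fitted. With securinine the count of 10 became 16 among genes above the median probe set, 21 with an intensity trend, 6 in the fit of the 4 arrays compared, 1 with all probe sets fitted and adjusted over together, 5 with the replicate block and 0 to 6 with an array left out. For 16F16 against mock the count of 0 became 2 among genes above the median probe set and 12 with an intensity trend, and stayed 0 with each array left out. Between the compounds the count of 4 became 8, 12 and 7 among genes above the median probe set, with an intensity trend and with protein-coding genes only. It became 0 in the fit of the 4 arrays compared and with all probe sets fitted, 1 with the replicate block and 0 with each array left out. Deviations of arrays with the same replicate number correlated at -0.05 to 0.038, so no shift shared by replicate number was seen. The labels do not say whether cultures were paired, and these values cannot settle it.

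The median of the members with securinine, -0.097, was -0.13 to -0.053 over the alternatives, the last without mock replicate 2. With 16F16 it was -0.081 to -0.062, and between the compounds it was 0.013 to 0.050. Scaling moved the median of all genes to -0.065 at most with securinine. Apart from left-out arrays, signs turned for TIMMDC1 (0.018 with quantile normalization) and COX6A1 (-0.041 with the mean of its probe sets), both between the compounds. With an array left out, the sign of some uncalled differences turned. With securinine these were COX14 from -0.33 to 0.0074, COX8C from -0.028 to 0.32, TIMM23 from -0.094 to 0.0068 and TOMM20L from -0.083 to 0.35. With 16F16 they were NDUFAF8 from -0.064 to 0.069, UQCRB from -0.12 to 0.11, COX17 from -0.021 to 0.21, COX20 from -0.056 to 0.024, COX7A1 from -0.032 to 0.33, COX7B2 from -0.59 to 0.33, TIMM13 from -0.033 to 0.051, TOMM20L from -0.19 to 0.18, SLC25A15 from -0.08 to 0.0032 and SLC25A2 from -0.15 to 0.063. Between the compounds they were COX11 from -0.16 to 0.052, COX17 from -0.14 to 0.0039, COX7A1 from -0.41 to 0.026, COX7B2 from -0.81 to 0.11, ATP5IF1 from -0.017 to 0.13 and TOMM20L from -0.35 to 0.077. The cause was not tested. TIMM10 with securinine kept its call in 9 of 9 alternatives other than left-out arrays, and in 5 of 6 with an array left out.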

Other observations

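Noncoding genes and pseudogenes whose symbols share these stems were outside the group. SLC25A25-AS1, an antisense gene, was at 5.29 and 5.52 with mock, 5.83 and 5.85 with securinine and 5.46 and 5.39 with 16F16, and rose by 0.43 ± 0.10 with securinine (adjusted p = 0.039 in limma). COX10-DT, a divergent transcript at the assembly gene COX10, was at -0.40 ± 0.17 with securinine (adjusted p = 0.16). NDUFA6-DT and NDUFB2-AS1 were at -0.06 ± 0.096 and 0.09 ± 0.11. SLC25A5-AS1 was at 0.44 with 16F16 (adjusted p = 0.25). The protein-coding partners of these 5 genes were not analysed here.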
